A study of Bos taurus with 2 samples.

Results

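Fibroblast growth factors (FGFs) are secreted signals that bind FGF receptors, which are tyrosine kinases of the cell surface, together with heparan sulfate. In developing skeletal muscle this signaling is known for keeping myoblasts dividing and for restraining their differentiation, and it also acts on blood vessels and connective tissue. The genes examined here were the receptors *FGFR1*, *FGFR2*, *FGFR3*, *FGFR4* and *FGFRL1* and the ligands *FGF1*, *FGF2*, *FGF6*, *FGF7* and *FGF10*. They were chosen by name, and their probes were found by matching the accession of each probe on the array to these symbols. Of the 10 genes, 9 had a matched probe, with 25 of the 43652 probes in all, and no accession was matched to *FGFRL1*, a receptor-like protein that lacks the kinase domain.

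The samples were *longissimus thoracis* (LT) muscles of Japanese Black fetuses at 8.5 months of gestation, all sired by the same bull with male-sorted semen. The dams received 120% (high-nutrition, HN) or 60% (low-nutrition, LN) of the overall nutritional requirement from before pregnancy through gestation. Total RNA of 4 fetuses was pooled in each group and labelled for 1 one-color Agilent bovine array, so that the whole comparison rests on 2 arrays. The 4 HN fetuses were those with the highest bodyweight (BW) in their group and the 4 LN fetuses those with the lowest, so that diet and selection by BW cannot be told apart. With 1 array per group there was no replicate check, no test and no p-value, and the spread between fetuses is unknown. In pooled tissue RNA, fewer cells of a type and less RNA per cell also cannot be told apart.

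The array measured the muscle well at the bright end and poorly at the dim end, where several FGF genes lay. Spots flagged by the extraction software as well above background made up 74.5% of the HN and 70.9% of the LN array. Muscle fibre markers were found for 10 of 12 names, all of them with a value, with a log2 LN/HN between -0.24 and 0.35. The SD of the log2 LN/HN of a single spot was 0.085 among 42 probes printed in several spots, which were mostly bright. The software's own error estimate, given below as ± SE of the log2 LN/HN of a probe, was larger and covers the array measurement only.

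Of the 25 FGF probes, 16 were well above background on both arrays, 3 on the HN array only and 6 on neither. None was above background in LN alone. Among all probes, 70.2% were above background on both arrays, 4.24% in HN alone and 0.65% in LN alone. The 16 probes gave a value for 6 genes, namely *FGFR1*, *FGFR2*, *FGFR4*, *FGF1*, *FGF2* and *FGF7*, whereas *FGFR3*, *FGF6* and *FGF10* had none. The plot of the signals of each probe shows that the open symbols, which were not well above background, lie at log2 signals below 3.

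**Figure D1:**
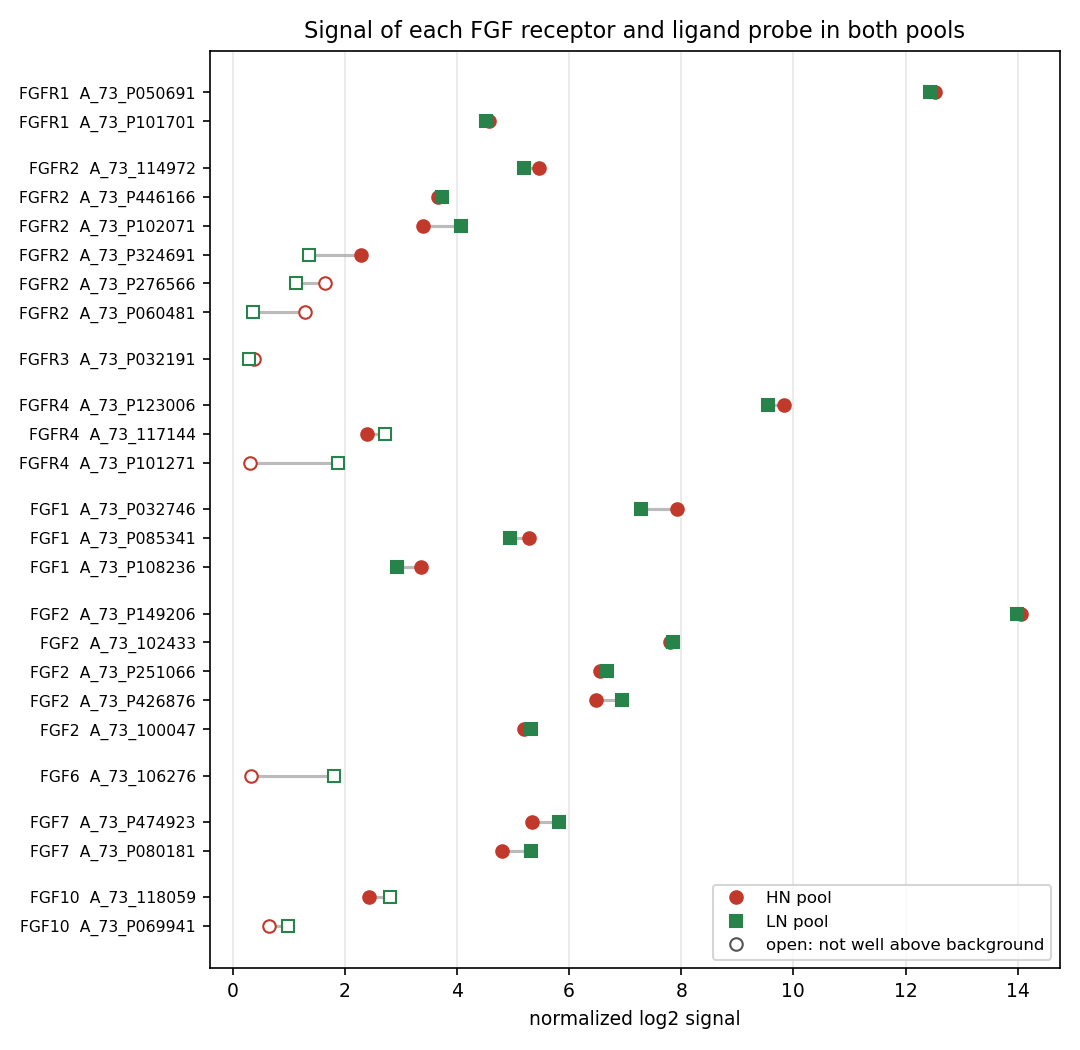
Normalized log2 signal (horizontal axis) of each of the 25 probes (vertical axis, grouped by gene) in the HN pool (red circles) and the LN pool (green squares), with 1 array per pool and open symbols where a probe was not well above background. *FGF1* lies to the left in the LN pool in all 3 probes and *FGF7* to the right in both, while the 6 probes of *FGFR2* move both ways.

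The ligands *FGF1* and *FGF7* were the genes past 1.25-fold, in opposite directions. *FGF1* was 1.38-fold lower and *FGF7* was 1.40-fold higher in the LN pool than in the HN pool. Among all 19554 genes with a value, which include accessions without a symbol, 9.11% were past 1.25-fold lower and 8.85% higher (18% in all). Thus 2 of 6 genes is a count too small to be read as a difference from the rest of the array. No FGF gene was past 2-fold, a size reached by 0.711% of all genes in the higher and 0.286% in the lower direction (0.997% in all). The median log2 LN/HN of the 6 genes was 0.03, with 3 genes above and 3 below 0, against a median of -0.0033 over all genes.

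At the level of probes, 7 of the 16 were past 1.25-fold, 4 of them higher and 3 lower in the LN pool. Among all probes well above background on both arrays, 16.9% were past 1.25-fold, 8.59% higher and 8.31% lower. No FGF probe was past 2-fold, which 0.444% of all such probes were in the higher and 0.238% in the lower direction (0.682% in all). Probes of the same gene are not independent, and large ratios were more common among dim probes. When all probes were divided by signal into 4 groups of equal size, 35.3% of the dimmest group were past 1.25-fold, with an SD of the log2 LN/HN of 0.37, while 6.38% of the brightest group were, with an SD of 0.18. The FGF probes past 1.25-fold were 4 of 6 in the dimmest group and 2 of 5 in the next, where 16.4% of all probes were. They were 1 of 3 in the third group, where 9.49% of all probes were, and 0 of 2 in the brightest. Against the 5th to 95th percentile of all probes of like signal, a range that leaves out 10% by construction, 4 of the 16 FGF probes were outside. These were 1 probe of *FGF1* below it and, above it, both probes of *FGF7* and 1 probe of *FGF2*. The *FGF7* probes were only just above it, at 0.470 and 0.511 against upper limits of 0.468 and 0.487.

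**Figure D2:**
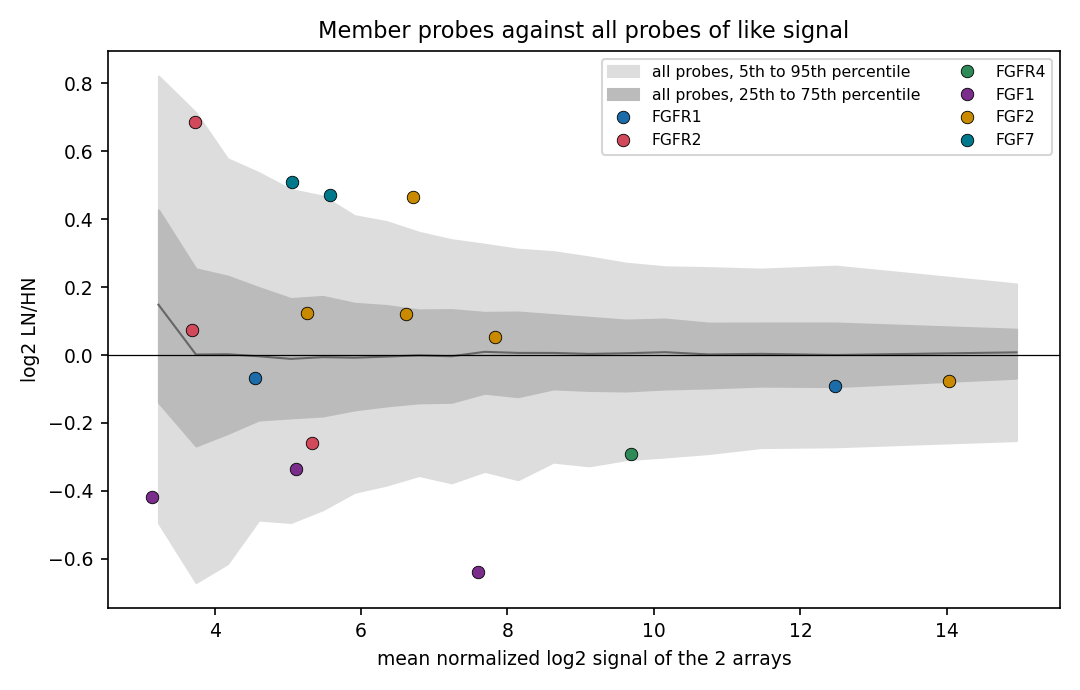
Log2 LN/HN (vertical axis) of the 16 FGF probes well above background on both arrays against their mean normalized log2 signal (horizontal axis), with the range of all probes in 20 bins of signal as grey bands. The band narrows as the signal increases, and the brightest *FGF1* probe (log2 LN/HN -0.64) is the point farthest outside it.

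*FGFR1*, the main receptor of proliferating myoblasts, differed little between the pools. Its probe A_73_P050691 had an intensity of 5781 in the HN and 5586 in the LN pool, with -0.09 ± 0.20 (SE) as its log2 LN/HN. Its probe A_73_P101701 had intensities of 24.5 and 22.3 (log2 LN/HN -0.07 ± 0.23). Both probes were thus slightly lower in the LN pool, by less than the error of either, and the mean log2 LN/HN was -0.08. The value stayed below 0 and short of 1.25-fold in all 13 other settings of the processing. Settings that changed only the handling of dim or flagged probes could not move it, as both probes were unflagged and well above background.

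*FGFR2*, a receptor with splice forms for epithelial and mesenchymal ligands, disagreed most between its probes, among probes well above background on both arrays. All 6 probes carry the accession of the same RefSeq transcript, NM_001205310, on which the study also designed its PCR assay. The text of the paper gives no PCR result for *FGFR2*. Where each probe lies and which splice form it reads could not be worked out, as the probe sequences were not at hand. The primers of that assay are shown because they are the sequences of this gene in the sources used here. They were designed on the transcript that the probes are listed under.
FGFR2 forward: ccatttactgcataggggtgttc
FGFR2 reverse: ggagctggactcagcagaaac

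In *FGFR2*, probe A_73_114972 had an intensity of 44.6 in the HN and 36.1 in the LN pool (log2 LN/HN -0.26 ± 0.22 SE). Probe A_73_P446166 had intensities of 13.2 and 12.7, which gave a log2 LN/HN of 0.07 ± 0.30 after normalization and -0.05 before it. Probe A_73_P102071 went the other way, with intensities of 11.1 and 16.3 (log2 LN/HN 0.68 ± 0.29). The mean of these 3 probes was 0.17 (SD 0.48 between probes), so that the spread between the probes exceeded the value of the gene.

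The other 3 *FGFR2* probes were dimmer, and all of them had the lower signal in the LN pool. Probe A_73_P324691 was well above background in the HN pool (intensity 5.34) but not in the LN pool (2.22). It gave no fold, because its HN signal of 2.29 on the log2 scale did not reach the detection limit of the LN array (2.82), the lowest signal there with that flag. Probes A_73_P276566 (3.57 and 1.87) and A_73_P060481 (2.84 and 1.42) were well above background on neither array. Taken as measured, these 3 probes had log2 LN/HN values of -0.93, -0.53 and -0.91, with software errors of 0.94, 1.18 and 1.55. The mean over all 6 probes as measured was -0.31, opposite in sign to that of the 3 probes measured on both arrays. The direction of *FGFR2* therefore depended on which probes were counted.

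The disagreement can be set against other genes and against probes of like signal. Among 1888 genes with 3 probes well above background on both arrays, the median range from the lowest to the highest log2 LN/HN was 0.20, and 97.8% of them had a smaller range than *FGFR2* (0.94). These genes were of any signal, whereas 2 of the 3 *FGFR2* probes were in the dimmest of the 4 groups. The 5th to 95th percentile of all probes of like signal ran from -0.67 to 0.71 for these 2 probes and from -0.46 to 0.47 for A_73_114972, and all 3 lay inside it. Opposite signs as such were common, as 2930 of the 7139 genes with at least 2 such probes (41.0%) had probes on both sides of 0. Only 71 of these genes had probes past 1.25-fold in both directions, and *FGFR2* was not among them.

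**Figure D3:**
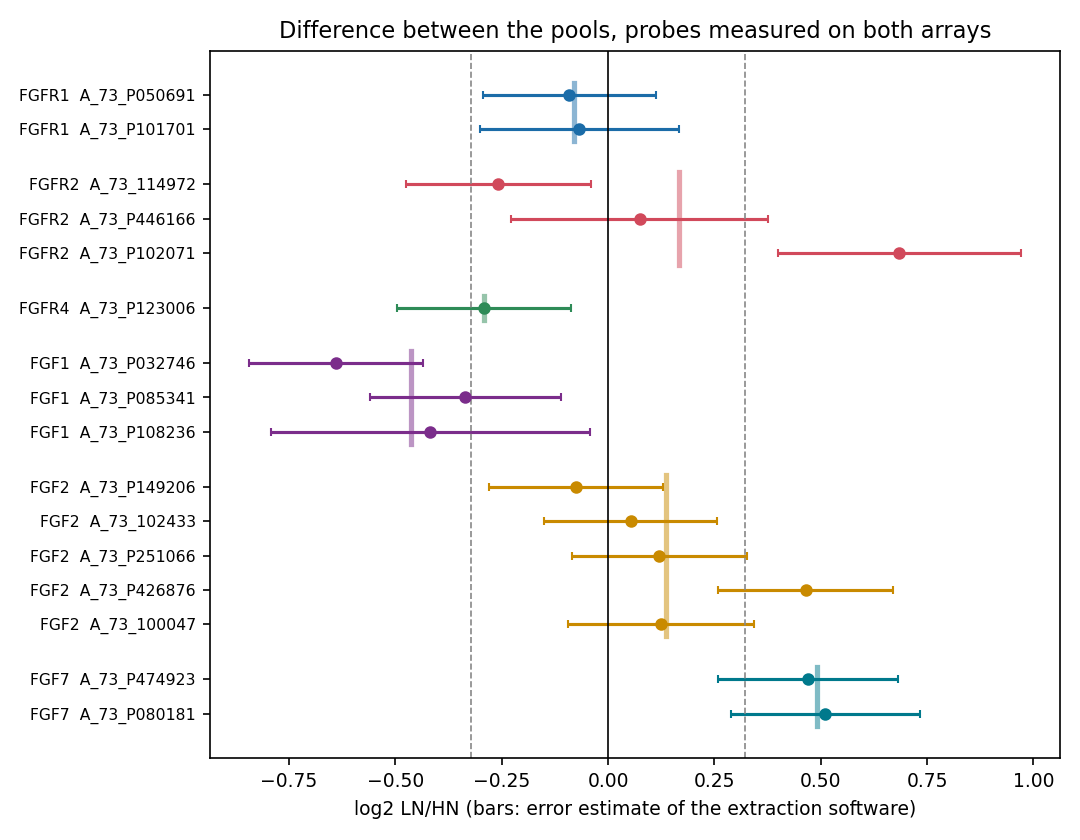
Log2 LN/HN (horizontal axis) of the 16 FGF probes well above background on both arrays (vertical axis), with bars for the error estimate of the extraction software, thick vertical ticks for the mean of each gene and dashed lines at 1.25-fold. The 3 probes of *FGFR2* run from -0.26 to 0.68, while those of *FGF1* are all below 0 and those of *FGF7* all above 0.

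*FGFR4*, a receptor found in differentiating and regenerating muscle, rested on 1 of its 3 probes. Probe A_73_P123006 had an intensity of 898.2 in the HN and 754.2 in the LN pool, with -0.29 ± 0.20 (SE) as its log2 LN/HN, a 1.22-fold difference just short of 1.25-fold. Of all genes, 10.8% had a lower value. Probe A_73_117144 was well above background in the HN pool only (intensity 5.72, against 6.14 in the LN pool) and gave no fold, and A_73_P101271 was dim in both pools (1.11 and 3.30). With these dim probes counted as measured the mean of the gene was 0.53, so the lower value of *FGFR4* in the LN pool stands on the bright probe. For *FGFR3*, best known as a brake on cartilage growth, the only probe had intensities of 1.19 and 1.37 and was not well above background on either array.

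*FGF1*, a ligand of all FGF receptors that is released without a classical signal peptide, was lower in the LN pool in each of its 3 probes. Probe A_73_P032746 had an intensity of 240.5 in the HN and 156.4 in the LN pool (log2 LN/HN -0.64 ± 0.20 SE). Probe A_73_P085341 had intensities of 39.7 and 30.3 (-0.34 ± 0.22). Probe A_73_P108236 was dim, with intensities of 10.7 and 7.16 (-0.42 ± 0.37). All 3 probes were past 1.25-fold lower, as in 1.85% of the 1888 genes with 3 such probes, and the range between them (0.30) was larger than in 68.9% of these genes. These genes were of any signal, whereas all *FGF1* probes but the brightest were in the dimmest of the 4 groups of signal. The mean log2 LN/HN was -0.46 (SD 0.16 between probes), and 4.33% of all genes had a lower value. In the authors' normalized log2 values the dim probe had a log2 LN/HN of -0.95, the largest departure among the 16 probes, and the gene had -0.63. After the normexp background correction the value was -0.28, short of 1.25-fold.

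*FGF2*, the ligand classically used to keep satellite cells dividing in culture, had 5 probes, all well above background on both arrays. Probe A_73_P149206 had an intensity of 17051 in the HN and 16332 in the LN pool (log2 LN/HN -0.08 ± 0.20 SE). Probe A_73_102433 had intensities of 220.0 and 233.5 (0.05 ± 0.20). Probe A_73_P251066 had 94.0 and 101.8 (0.12 ± 0.21). These 3 probes did not differ between the pools beyond their error, nor did A_73_100047, with 37.5 and 39.4 (0.12 ± 0.22). Probe A_73_P426876 stood apart with intensities of 89.3 and 123.2 (0.46 ± 0.21), a 1.38-fold difference. The mean of the gene was 0.14 (SD 0.20 between probes), and it was -0.08 with the brightest probe alone. In the current gene table *FGF2* overlaps *NUDT6*, whose 2 probes had log2 LN/HN values of 0.17 and -0.14, and the sequences of the probes were not used here to tell the transcripts apart.

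*FGF7*, a ligand made by mesenchymal cells that acts on the epithelial form of *FGFR2*, was higher in the LN pool in both of its probes. Probe A_73_P474923 had an intensity of 41.2 in the HN and 55.8 in the LN pool (log2 LN/HN 0.47 ± 0.21 SE). Probe A_73_P080181 had intensities of 28.6 and 39.2 (0.51 ± 0.22). The probes differed from each other by 0.04, against a median of 0.12 among 4152 genes with 2 such probes, and 2.72% of these genes had both probes past 1.25-fold higher. These genes were of any signal, whereas the *FGF7* probes were in the dimmest and the next of the 4 groups of signal. Of all probes in those groups, 19.6% and 7.96% were past 1.25-fold higher. The mean log2 LN/HN was 0.49 (SD 0.03 between probes), and 4.43% of all genes had a higher value. It was 0.20 after the normexp background correction, a smaller value short of 1.25-fold. The gene table shows an overlap of *FGF7* with *FAM227B*, of *FGF1* with a protein-coding gene and small RNAs, and of *FGFR2* with a long noncoding RNA, and no probe was matched to any of these neighbours.

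Markers of connective tissue were also higher in the LN pool. Of 11 fibroblast and fibro-adipogenic progenitor markers, 9 were higher and 4 past 1.25-fold, with a median log2 LN/HN of 0.26. On the log2 scale their summed signal was 18.17 (HN) and 18.48 (LN), and none was below detection. Their part in the value of *FGF7* was not tested. Endothelial markers were lower in 8 of 9 genes, 1 of them past 1.25-fold (median -0.23, summed signal 15.16 and 14.81), and neutrophil markers were past 1.25-fold higher in the 7 genes measured on both arrays (median 0.76, summed signal 11.88 and 12.65). Macrophage markers were lower in 6 of 7 genes, 3 of them past 1.25-fold (median -0.29, summed signal 13.26 and 12.94). Pericyte and smooth muscle markers were lower in 4 of 6 genes, with 1 past 1.25-fold lower, and 1 past 1.25-fold higher only with a probe that was dim in the HN pool (median -0.24, summed signal 13.63 and 13.45). Adipocyte markers were higher in 3 of 4 genes, 1 of them past 1.25-fold (median 0.21, summed signal 12.27 and 12.50), with *LEP* not well above background. Erythroid, Schwann cell and nerve, and bone and cartilage markers had no gene past 1.25-fold, with medians of -0.06 over 5 genes, 0.02 over 6 and -0.03 over 2. *ACAN* and *IBSP*, which mark cartilage and bone, were not well above background. Satellite cell and myoblast markers were higher in 4 and lower in 4 of 8 genes, 1 of the latter past 1.25-fold (median 0.04, summed signal 14.35 and 14.39), with *PAX3* not well above background, and muscle fibre markers were lower in 9 of 10, while the remaining gene was past 1.25-fold higher (median -0.09, summed signal 21.87 and 21.81). Epithelial markers, which accompany the epithelial form of *FGFR2*, were higher in 5 of 7 genes, 2 of them past 1.25-fold, with *CDH1* and *KRT5* not well above background (median 0.12, summed signal 10.76 and 10.91). The part of these cell types in the values of the FGF genes was not tested.

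The remaining ligands were at the limit of the array. *FGF10*, a mesenchymal ligand of the same receptor form as *FGF7*, had one probe with intensities of 5.83 and 6.52, which was marked in the HN pool only although its signal was higher in the LN pool. Its HN signal of 2.43 on the log2 scale was under the limit of the LN array, so no fold was given, and its other probe (1.49 and 1.78) was marked in neither pool. *FGF6*, a ligand largely restricted to skeletal muscle, had 1 probe with intensities of 1.13 and 3.14, not well above background in either pool. The negative controls had median intensities of 1.24 (HN) and 1.51 (LN).

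Of the other genes of the FGF pathway, 63 had a value and 9 of them (14.3%) were past 1.25-fold, 4 higher and 5 lower in the LN pool, near the 18% among all genes. From probes well above background on both arrays alone, 8 of 62 (12.9%) were past 1.25-fold, 2 higher and 6 lower, against 16.1% of all genes. Lists were used for other ligands, co-receptors, signal transducers, feedback inhibitors and targets. Of 20 other FGF ligands and binding proteins, 12 were matched and 6 had a value, all 6 lower in the LN pool. Their median log2 LN/HN was -0.17, against -0.0033 over all genes, and they ranged from -0.61 to -0.06. *FGF12*, an intracellular FGF homologous factor that binds sodium channels, was the only one past 1.25-fold (-0.61). Its probes measured on both arrays gave -0.36 and -0.61, and its dim probe was at least 1.81-fold lower. *FGF4*, another of these ligands, had a low signal and probes on both sides of 0 (-0.44 and 0.12).

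Co-receptors and heparan sulfate genes had a value in 17 of 29 cases, with 8 higher and 9 lower and a median log2 LN/HN of -0.0036. From probes measured on both arrays 6 were higher and 10 lower (median -0.07), as *GPC6* had no such probe and *NDST1*, a sulfotransferase with a value of 0.17, was higher through a probe that was dim in the HN pool. The enzymes *EXTL3* (-0.37), of heparan sulfate chain initiation, and *HS6ST1* (-0.37), a 6-O-sulfotransferase, were past 1.25-fold lower from 1 probe each. *FLRT3* (0.37), a membrane protein that promotes FGF signaling, was past 1.25-fold higher, but its probe measured on both arrays gave 0.02. The glypican *GPC6* was at least 1.90-fold higher from a probe that was well above background in the LN pool only (intensities 4.51 and 8.73).

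Of 27 signal transducers 20 had a value, 11 higher and 9 lower, with a median log2 LN/HN of 0.05. The transcription factor *STAT5B* (-0.34, 1 probe) was the only one past 1.25-fold. *PLCG1*, the phospholipase that docks on active FGF receptors, had -0.31 from 2 probes, 1 of them dim in the LN pool and the other past 1.25-fold lower (-0.33), and *MAPK3*, a terminal kinase of the cascade, had -0.16 with probes from -0.38 to 0.0041. Of 18 feedback inhibitors 10 had a value, 7 higher and 3 lower, with a median of 0.06 and none past 1.25-fold. These inhibitors, among them Sprouty and Spred proteins and MAP kinase phosphatases, ranged from -0.08 to 0.25. The phosphatase *DUSP4* had a mean of -0.03 from 2 probes past 1.25-fold in opposite directions (-0.49 and 0.43), and it was the only gene of the 5 pathway lists with such a pair.

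Among 14 transcriptional targets 10 had a value, with 5 higher, 5 lower and a median log2 LN/HN of 0.0061. *ETV5*, a transcription factor induced by FGF signaling through the MAP kinases, was 1.43-fold higher, with intensities of 172.7 and 276.1 in one probe and 58.9 and 75.8 in the other (log2 LN/HN 0.66 and 0.38). Its relative *ETV1* was 1.25-fold higher from 1 probe (157.5 and 200.2, log2 LN/HN 0.33). *SPP1*, which encodes the secreted osteopontin, was 1.40-fold lower (27.4 and 18.5).

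**Figure D4:**
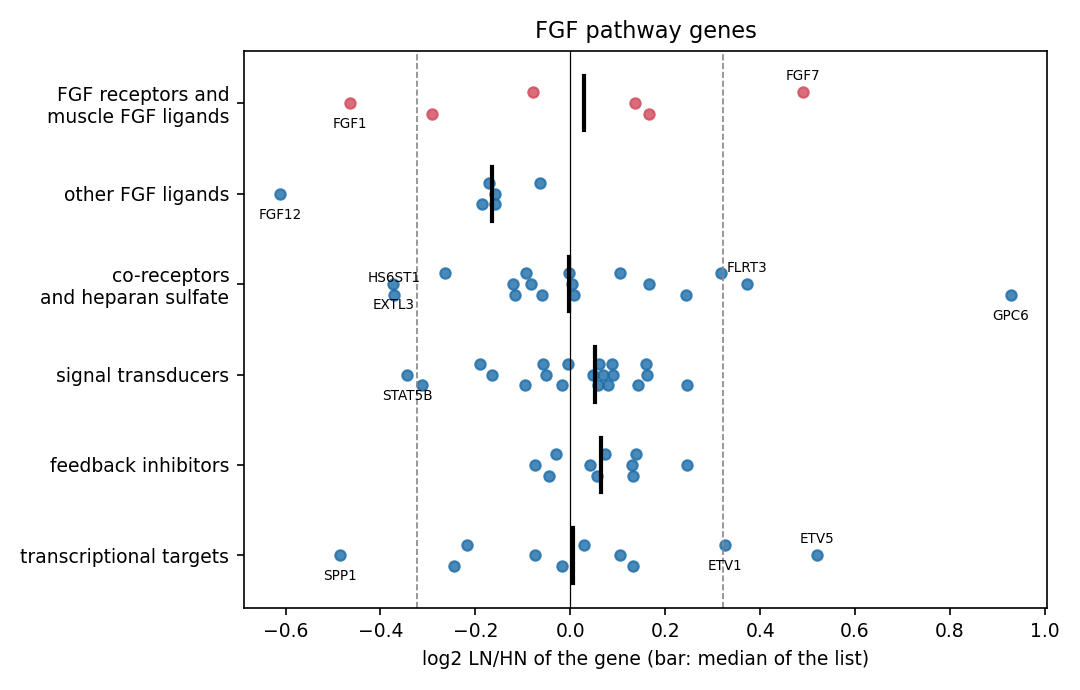
Log2 LN/HN of each gene with a value (horizontal axis), by list (vertical axis), with the FGF receptors and muscle ligands in red, 5 lists of other FGF pathway genes in blue, black bars for the median of a list, dashed lines at 1.25-fold and names for the genes past it. The point for *GPC6* rests on a limit from a dim probe, as do in part those of *FLRT3*, *FGF12*, *PLCG1*, *NDST1* and 2 other genes, and the feedback inhibitors all lie within 1.25-fold.

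The values of the 6 genes under the other settings of the processing separated them into those that kept their direction and those that did not. *FGF1* and *FGFR1* were lower, and *FGF7* higher, in all 13 settings. Settings that changed only the handling of dim or flagged probes could not move these genes or *FGF2*. All probes of these genes were unflagged and well above background on both arrays. *FGFR4* was lower in 10 of 13 settings and *FGF2* higher in 12. *FGFR2* was higher in 8 and lower in 5, from -0.31 to 0.68.

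**Figure D5:**
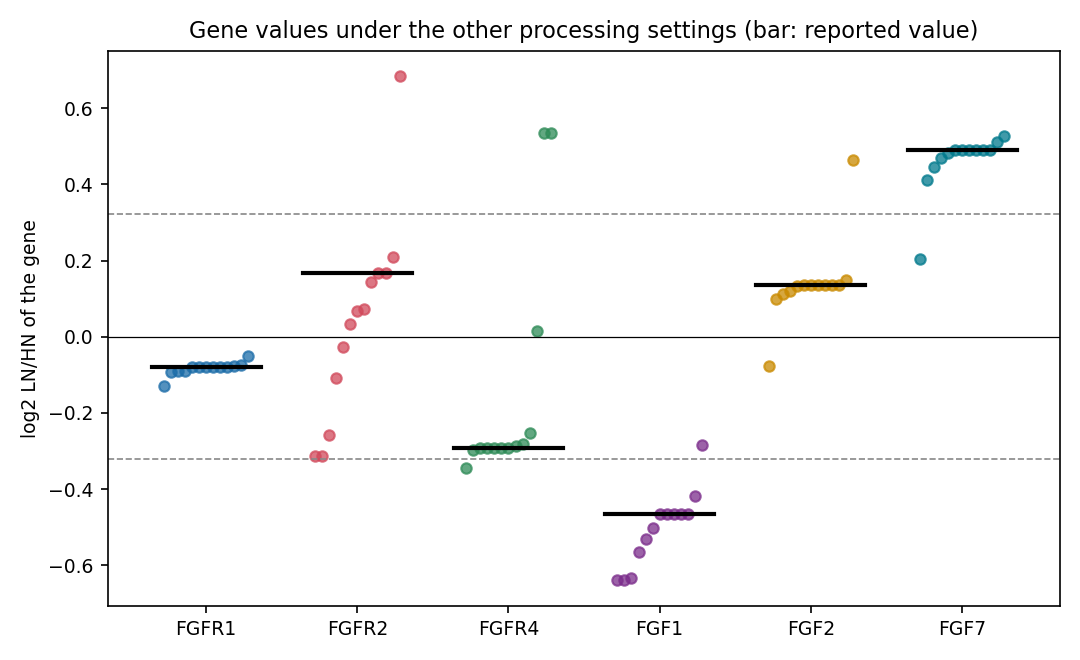
Log2 LN/HN (vertical axis) of the 6 FGF genes with a value (horizontal axis) under 13 other processing settings (points) and as reported (black bars), with dashed lines at 1.25-fold. *FGFR2* spreads across 0 from -0.31 to 0.68, whereas *FGF1* stays between -0.64 and -0.28 and *FGF7* between 0.20 and 0.53.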

How the data were processed

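The authors hybridized Cy3-labelled RNA of each pool to an Agilent Bovine (v2) array and extracted the spots with Agilent Feature Extraction 11.0.1.1, per the labels. The deposited intensities are background-subtracted and detrended, without normalization between arrays, and carry flags and an error for each spot. A table of log2 values was deposited too, quantile-normalized by the authors in GeneSpring GX, whose scale was judged from the values.

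Log2 intensities of the 43803 non-control spots were quantile-normalized with limma 3.58.1 in R 4.3.3, and 13 spots with an outlier flag, none of them an FGF probe, were removed. Repeated spots were averaged. A probe was used when either array had it well above background. On the dim side, the higher of its own signal and the lowest signal marked there was used, and no fold was given where the bright side did not exceed it. Gene values are means of log2 LN/HN over the probes with a fold. Python 3.11.15, numpy 2.4.6, pandas 2.3.3 and matplotlib 3.10.9 were used. The steps were tested on simulated data. The changes placed there were larger than those of the FGF genes and lay in brighter genes. Changes of the size reported here and dim probes were thus not checked by it.

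Probe accessions gave symbols by way of the RefSeq gene table for ARS-UCD2.0 (26743 probes matched). Coordinates are left out because the array was designed on an earlier build. The members and lists were chosen with earlier results of these data known. Genes of the pathway lists were named when past 1.25-fold, with *PLCG1* and *MAPK3* as links to the study. Marker lists are given as counts and medians, with names for some defining markers not well above background. *NUDT6* and *FAM227B*, which overlap members, and *DUSP4* and *NDST1* were added after their values were seen. The number of arrays limits the precision between groups, and 13 other settings were tried.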

Additional observations from a re-analysis of the deposited data

How the results depend on the processing

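Counts of FGF genes past 1.25-fold were 1 higher and 1 lower, with none past 2-fold and a median log2 LN/HN of 0.03. The count of lower genes was 1 in all 13 settings, but after the normexp correction it was *FGFR4* (-0.35) in place of *FGF1* (-0.28). The count of higher genes was 0 after the normexp background correction, 2 with dim values as measured, 3 with the probe of the largest change, and 4 both without a filter on dim probes and with probes that were positive and significant on at least 1 array. In these last 2 settings 1 gene, *FGF6*, was past 2-fold and the median was 0.14, because probes near background entered. With only the brightest probe per gene the median was -0.17, and it was 0.19 with the probe of the largest change. Cyclic loess, scaling by the 75th percentile, omission of the normalization, the authors' own values, the median over probes, probes well above background on both arrays and spots with an outlier flag kept left the counts as they were. Subtracting the 75th percentile moved the median of all genes to -0.042 and that of the FGF genes to -0.05. The normexp correction was run on the median spot signal, a choice made after seeing the data, and was not run on the mean spot signal. No paired analysis was possible because each group has 1 array, and no array could be left out. Low signal limits *FGFR2*, *FGFR3*, *FGF6* and *FGF10*, and *FGFR4* apart from its bright probe. It also bears on *FGF7* and on the dimmer probes of *FGF1*, and both genes were short of 1.25-fold after the normexp correction.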
